A study of Mus musculus with 13 samples.

Results

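Matrix metalloproteases (Mmp genes), their secreted relatives of the Adamts family and the tissue inhibitors of metalloproteases (Timp genes) were described here across mouse heart ventricle, cardiac fibroblasts and cardiomyocytes. Members were all protein-coding genes whose symbol begins with Mmp, Timp or Adamts followed by a number. This gave 45 genes, 22 Mmp, 4 Timp and 19 Adamts, out of 29035 genes with a summed value in the cell libraries and 29061 in the ventricle libraries. Mmp1a was not a member because the annotation lists it as a polymorphic pseudogene.

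RNA sequencing had been done on 13 libraries of wild-type FvB mice, in every case with the atria removed. Later cardiac fibroblasts were taken at postnatal day 28 (PN28) and PN60, 1 library each, and neonatal cardiac fibroblasts in 2 libraries labelled PN1-2 and PN1-3. Later cardiomyocytes were taken at PN30 and PN67, 1 library each, and neonatal cardiomyocytes in 2 libraries labelled PN1 and PN1-2. Whole ventricle was sampled with a single library per stage, at embryonic day 17 (E17) and then at PN1, PN10, PN28 and PN90.

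Fibroblasts of every stage had been digested enzymatically and preplated. Later cardiomyocytes came from Langendorff perfusion and neonatal ones from preplating, so that stage and isolation method cannot be told apart in cardiomyocytes. Cell libraries were made with a TruSeq protocol and ventricle libraries by ribosomal RNA depletion and ScriptSeq. Nothing in the labels says whether libraries of one group came from separate animals or how many animals were pooled. A p-value here therefore does not measure the spread between animals. In cells it reflects the spread between libraries of a class, which in the later classes includes the difference between their ages. In ventricle, with a single library per stage, it reflects departures from a straight line over stage order.

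Mmp enzymes are zinc proteases that cut collagens, proteoglycans, elastin and other proteins of the extracellular matrix. Most are made as inactive proenzymes that lose a propeptide, and the Timp proteins block their active site. Adamts proteases cut matrix proteoglycans or trim the N-terminal propeptide from procollagen, and in heart these families are studied for their part in valve formation, matrix growth after birth and remodelling after injury.

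Levels are given as scaled FPKM, the length- and depth-normalised fragment values (FPKM) of the authors, summed over a gene's transcripts and then scaled by the median ratio between libraries. The 8 cell libraries and the 5 ventricle libraries were scaled separately. Differences are on the log2(scaled FPKM + 1) scale with their standard error (SE). A gene was called when its limma adjusted p (Benjamini-Hochberg over all genes tested, two-sided) was below 0.05.

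Between 18618 and 22468 transcripts reached 1 FPKM per library, and read totals were not used here. Of the 9 cardiomyocyte markers with a value, the summed level was 26.9 to 35.1 in later fibroblasts and 1143 to 1295 in neonatal fibroblasts, against 44564 to 45101 in later cardiomyocytes and 11721 to 12840 in neonatal cardiomyocytes. Macrophage and leukocyte markers summed to 768 to 974 in later fibroblasts and 96.5 to 174 in neonatal fibroblasts. Neutrophil markers summed to 3.57 to 6.17 in later fibroblasts, where Ly6g was at 0, and to 52.3 to 94.3 in neonatal fibroblasts. In cardiomyocytes the neutrophil sum was 4.63 to 4.81 later, with Ly6g and Elane at 0, and 169 to 251 in neonatal libraries, and the endothelial sum was 454 to 480 later and 1258 to 1446 neonatal. Fibroblast markers, 8 with a value, summed to 262 to 293 in later and 259 to 293 in neonatal cardiomyocytes, against 2385 to 2770 in later and 2961 to 2977 in neonatal fibroblasts.

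Of the 45 members, 29 passed a mean of 1 FPKM in the cells, 24 in the ventricles and 30 in at least one of these sets. Mmp2, gelatinase A, was the leading Mmp in all 4 fibroblast libraries, where it held 53.6% to 65.4% of the summed Mmp level. Mmp14, the membrane-bound enzyme that activates Mmp2, came second there with 13.5% to 31.0%. The second place in later cardiomyocytes went to Mmp15, another membrane-bound enzyme, with 37.9% at PN30 and 31.7% at PN67. Adamts1, which cuts versican and aggrecan, held 43.0% to 63.6% of the Adamts sum in fibroblasts.

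**Figure D1:**
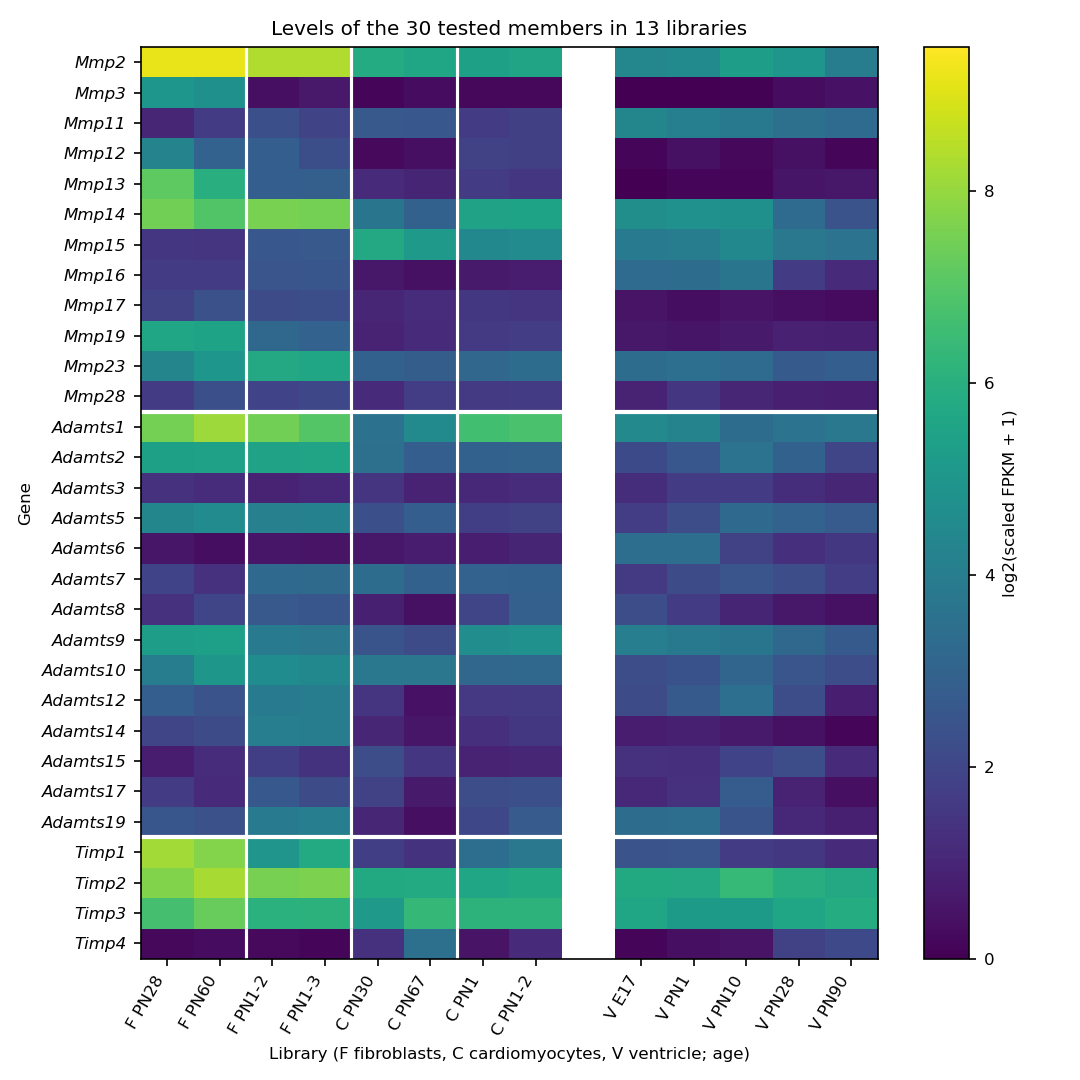
Heat map of log2(scaled FPKM + 1) for the 30 members tested in cells or ventricles (rows) in 13 libraries (columns; F fibroblasts, C cardiomyocytes, V ventricle, with age). Mmp2, Mmp14, Adamts1, Timp2 and Timp3 are bright across fibroblasts, Mmp3, Mmp13 and Timp1 are brighter in later fibroblasts than in neonatal ones, and cells and ventricles were scaled separately.

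Most members were higher in fibroblasts than in cardiomyocytes. In later cells 20 of 29 tested members were called higher in fibroblasts and 5 lower, where 39.4% of all 12095 genes tested were called higher and 38.6% lower. In neonatal cells 15 were called higher and 2 lower, against 19.3% and 21.6% of all genes. Later fibroblasts and later cardiomyocytes were isolated by different methods, so that cell type and isolation method cannot be told apart in later cells. These comparisons use the same libraries as the stage comparisons that follow.

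Mmp2 had 587 (PN28) and 581 (PN60) scaled FPKM in later fibroblasts, against 56.1 (PN30) and 48.8 (PN67) in later cardiomyocytes. The groups stood far apart, with a difference of 3.46 ± 0.11 (SE, limma adjusted p = 1.56e-07), and in neonatal cells the difference was 2.88 ± 0.11 (limma adjusted p = 9.86e-06). Adamts2, the main procollagen N-propeptidase of skin, had 40.7 and 42.6 scaled FPKM in later fibroblasts, against 10.4 and 6.24 in later cardiomyocytes (difference 2.23 ± 0.20, limma adjusted p = 2.68e-05). Neonatal levels of Adamts2 were 44.0 and 46.0 in fibroblasts, against 6.75 and 7.16 in cardiomyocytes. Neither cell type moved far with stage, and no stage change of Adamts2 was called.

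Mmp15 ran the other way. It had 1.83 and 1.79 scaled FPKM in later fibroblasts, against 52.3 and 34.3 in later cardiomyocytes, a difference of -3.95 ± 0.19 (limma adjusted p = 1.15e-06). In neonatal cells it had 4.97 and 5.23 scaled FPKM in fibroblasts, against 20.5 and 22.8 in cardiomyocytes (difference -1.89 ± 0.19, limma adjusted p = 0.000285). No fibroblast library reached any cardiomyocyte library at either stage. The other 4 members called lower in later fibroblasts than in later cardiomyocytes were Timp4, Adamts7, Mmp11 and Adamts15, and the only other one in neonatal cells was Adamts9. Calls that ended without 1 library were those of Adamts15, Adamts8 and Timp3 in later cells, with limma adjusted p up to 0.122, and of Adamts10, Mmp13 and Mmp17 in neonatal cells, up to 0.103.

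In fibroblasts 14 of 29 tested members changed between neonatal and later libraries. Of these, 6 were called higher in later fibroblasts and 8 lower, where 19.7% of all genes tested were called higher and 21.4% lower. The higher ones were the stromelysin Mmp3, the collagenase Mmp13, Mmp19, Mmp2, Adamts9 and the inhibitor Timp1. The lower ones were Adamts7, Adamts12, Adamts14, Adamts19 and the enzymes Mmp11, Mmp15, Mmp16 and Mmp23.

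Mmp3 had 30.9 (PN28) and 26.3 (PN60) scaled FPKM in later fibroblasts, against 0.297 (PN1-2) and 0.557 (PN1-3) in neonatal fibroblasts. Both later libraries lay far above both neonatal ones, with a difference of 4.38 ± 0.15 (limma adjusted p = 5.4e-06). No other cell library exceeded 0.557, so Mmp3 passed the mean filter of 1 through the later fibroblasts alone. Its p-values in the cell comparisons are therefore not independent of that filter. Mmp3, stromelysin 1, cuts a broad range of matrix proteins and can activate other Mmp proenzymes. Mmp13, the main interstitial collagenase of the mouse, had 141 and 62.0 scaled FPKM in later fibroblasts, against 6.14 and 6.27 in neonatal fibroblasts (difference 3.72 ± 0.33, limma adjusted p = 0.000188). The PN28 library was the higher of the later pair, and the groups did not overlap. Mmp12, macrophage elastase, had 18.1 and 6.92 scaled FPKM in later fibroblasts, against 6.18 and 3.81 in neonatal fibroblasts, and was not called. Macrophage and leukocyte marker sums were higher in the later fibroblast libraries, as given above, and their part in the levels of these 3 genes was not tested.

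Mmp3, Mmp13 and Mmp12 lie in one cluster of Mmp genes on chromosome 9. In mm9, Mmp13 spans chr9:7272514-7283333, Mmp12 chr9:7344381-7369499 and Mmp3 chr9:7445822-7455972. Promoters of collagenase and stromelysin genes are known for a binding site of AP-1, the Fos and Jun dimer. RefSeq promoter windows (GRCm38.p6) were found for 31 of the 45 members. The motif TGANTCA, searched on both strands in the 250 bases before each start site, was present in 7 of the 9 chromosome 9 Mmp members with a window (Mmp3, Mmp7, Mmp10, Mmp12, Mmp13, Mmp1b and Mmp20). None of the other 22 members held it, and 6.75% of all 32851 windows did. Neighbouring genes of one family share ancestry, so these windows are not independent of each other. The 120 bases before the start site are shown for 4 of these genes because 2 of them carry the largest changes in fibroblasts, with the motif in capitals, 5′ to 3′ on the plus strand of GRCm38.p6.
Mmp13, chr9:7272394-7272513: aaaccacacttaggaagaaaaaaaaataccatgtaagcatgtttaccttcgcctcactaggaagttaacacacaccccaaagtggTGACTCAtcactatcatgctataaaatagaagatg
Mmp3, chr9:7445702-7445821: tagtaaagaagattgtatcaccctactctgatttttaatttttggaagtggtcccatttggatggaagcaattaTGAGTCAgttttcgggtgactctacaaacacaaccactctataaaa
Mmp12, chr9:7347254-7347373: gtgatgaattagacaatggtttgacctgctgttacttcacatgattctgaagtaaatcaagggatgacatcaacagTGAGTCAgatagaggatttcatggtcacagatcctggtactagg
Mmp10, chr9:7502222-7502341: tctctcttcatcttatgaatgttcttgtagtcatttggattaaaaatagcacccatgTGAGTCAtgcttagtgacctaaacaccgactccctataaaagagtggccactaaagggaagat
The motif begins 35 bases before the start site in Mmp13, 46 in Mmp3, 44 in Mmp12 and 63 in Mmp10. Mmp10, stromelysin 2, stayed low in every library despite its match, with at most 0.414 scaled FPKM. Mmp1b and Mmp20 were also near 0, so that members with the motif ranged from near 0 to the 141 scaled FPKM of Mmp13 in PN28 fibroblasts. That was below the level of Mmp2 there, 587.

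Mmp19 had 47.8 and 44.3 scaled FPKM in later fibroblasts, against 8.15 and 6.90 in neonatal fibroblasts (difference 2.47 ± 0.15, limma adjusted p = 4.76e-05). The gene shares 789 exonic bases with Tmem198b on the opposite strand, which had 22.6 and 24.8 scaled FPKM in later fibroblasts, against 10.3 and 7.58 in neonatal fibroblasts. No source used here says whether strand was used in counting, so the Mmp19 level is uncertain. Mmp2 had 587 and 581 scaled FPKM in later fibroblasts, against 327 and 329 in neonatal fibroblasts (difference 0.83 ± 0.11, limma adjusted p = 0.0012). Timp1, an inhibitor of most secreted Mmp enzymes, had 293 and 212 scaled FPKM in later fibroblasts, against 29.9 and 55.3 in neonatal fibroblasts. Its groups did not overlap, and the difference was 2.58 ± 0.31 (limma adjusted p = 0.000657).

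Adamts9, which cuts versican and aggrecan, had 38.6 and 40.2 scaled FPKM in later fibroblasts, against 13.7 and 12.6 in neonatal fibroblasts (difference 1.52 ± 0.14, limma adjusted p = 0.000198). It shares 1381 exonic bases with A730049H05Rik on the opposite strand, itself at 12.4 and 8.65 in later fibroblasts, against 0.877 and 0.777 in neonatal fibroblasts. The level of Adamts9 is uncertain for the same reason as that of Mmp19. Adamts1 had 180 and 277 scaled FPKM in later fibroblasts, against 175 and 123 in neonatal fibroblasts. Its groups stood close to each other and it was not called (0.60 ± 0.33, limma adjusted p = 0.188).

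Among the members lower in later fibroblasts, Adamts14, a procollagen N-propeptidase, had 2.95 and 3.61 scaled FPKM, against 15.9 and 15.0 in neonatal fibroblasts (difference -1.94 ± 0.18, limma adjusted p = 0.000219). Adamts19 had 4.76 and 4.18 scaled FPKM in later fibroblasts, against 14.2 and 15.6 in neonatal fibroblasts (difference -1.54 ± 0.26, limma adjusted p = 0.00334). Neither gene had a later library near a neonatal one. Adamts7 and Adamts12 are a pair of related proteases that cut cartilage oligomeric matrix protein. Adamts7 had 2.81 and 1.53 scaled FPKM in later fibroblasts, against 8.50 and 8.82 in neonatal fibroblasts (difference -1.64 ± 0.22, limma adjusted p = 0.00124). Adamts12 had 6.18 and 4.38 scaled FPKM in later fibroblasts, against 14.7 and 15.0 in neonatal fibroblasts (difference -1.35 ± 0.31, limma adjusted p = 0.0112).

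Of the membrane-bound enzymes, Mmp15 had 1.83 and 1.79 scaled FPKM in later fibroblasts, against 4.97 and 5.23 in neonatal fibroblasts (difference -1.12 ± 0.19, limma adjusted p = 0.00361). Mmp23 had 19.1 and 30.7 scaled FPKM in later fibroblasts, against 52.5 and 48.9 in neonatal fibroblasts (difference -1.03 ± 0.21, limma adjusted p = 0.00749). Cardiomyocyte markers stood at a median of 0.0664% of their cardiomyocyte level in later fibroblasts, against 9.11% in neonatal fibroblasts. Since Mmp15 and Adamts7 are also transcribed in cardiomyocyte libraries, those values move with the fall of both genes, and their part in it was not tested. Mmp14 had 175 and 120 scaled FPKM in later fibroblasts, against 189 and 181 in neonatal fibroblasts, and was not called (-0.35 ± 0.25, limma adjusted p = 0.303).

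The remaining inhibitors of fibroblasts moved less. Timp2, which also takes part in the activation of Mmp2 by Mmp14, had 207 and 304 scaled FPKM in later fibroblasts, against 189 and 194 in neonatal fibroblasts (0.39 ± 0.18, limma adjusted p = 0.115). Timp3, the inhibitor that binds to the matrix and blocks several Adamts enzymes, had 103 and 154 scaled FPKM in later fibroblasts, against 66.0 and 68.1 in neonatal fibroblasts (0.90 ± 0.36, limma adjusted p = 0.0796). Both later libraries were above both neonatal ones for each gene, and neither was called. The summed Mmp level was 1033 and 889 scaled FPKM in later fibroblasts, against 611 and 597 in neonatal fibroblasts. The summed Timp level was 603 and 670 in later fibroblasts, against 285 and 318 in neonatal fibroblasts.

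Leaving out single libraries ended 3 of the 14 fibroblast calls. Without the neonatal PN1-2 library the limma adjusted p was 0.198 for Mmp11, 0.0539 for Mmp23 and 0.057 for Adamts12. Adamts12 also lost its call without the PN1-3 library (0.0537), and Mmp11 without PN28 (0.11), PN1-3 (0.0531) or any single cardiomyocyte library (0.058 to 0.0633). Adamts10 had 14.7 (PN28) and 31.3 (PN60) scaled FPKM in later fibroblasts, against 23.8 and 20.6 in neonatal fibroblasts, with a difference of -0.04 ± 0.30 that became -0.54 without PN60 and 0.51 without PN28.

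**Figure D2:**
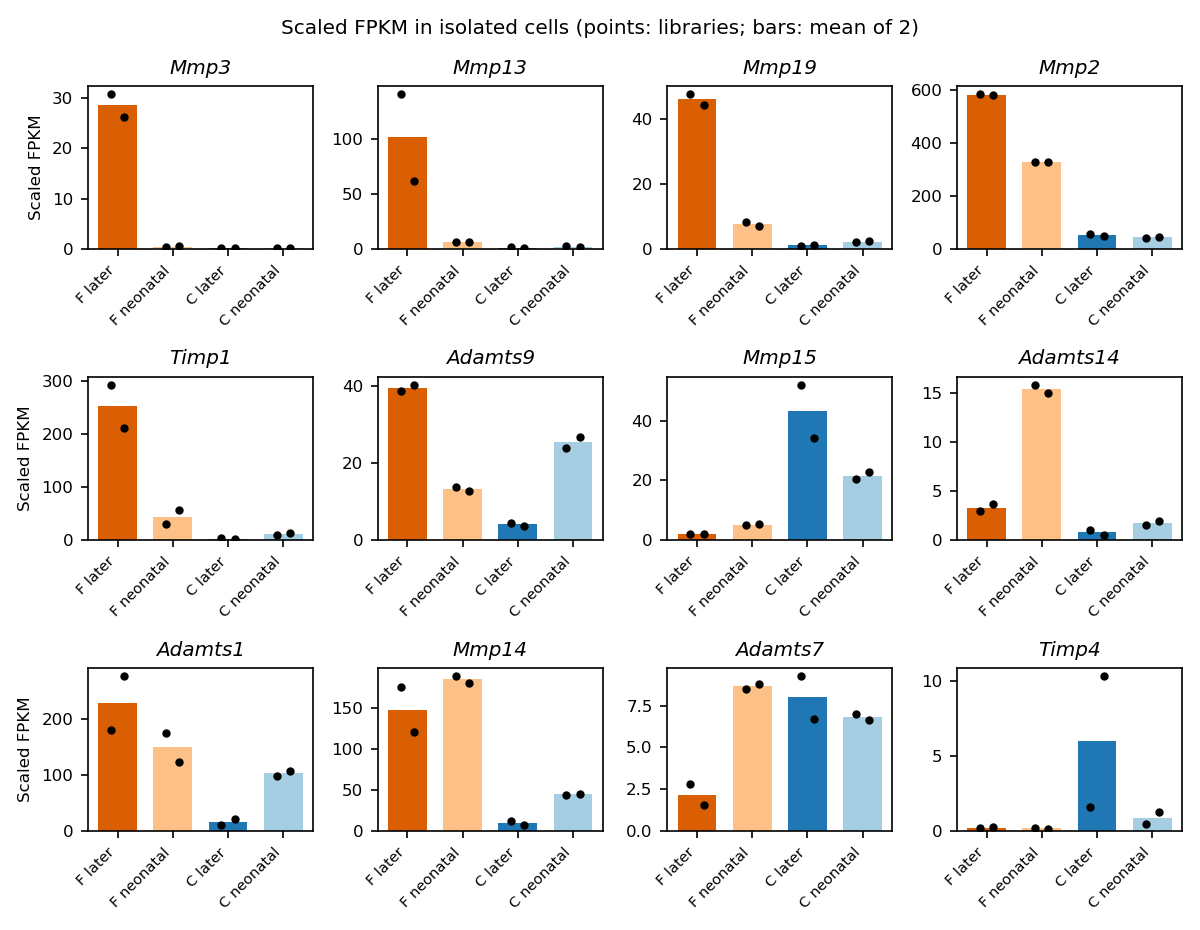
Scaled FPKM (linear axis from 0) of 12 members in isolated cells, with each library as a point and the mean of 2 as a bar, for later and neonatal fibroblasts (F) and later and neonatal cardiomyocytes (C). Mmp3 reaches 26.3 and 30.9 in later fibroblasts and at most 0.557 in the other 6 libraries, while Mmp15 is highest in later cardiomyocytes.

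Of 29 tested members, 5 were called higher in later cardiomyocytes than in neonatal ones and 10 lower, where 36.9% of all genes tested were called higher and 30.3% lower. This split depended on the scaling. On unscaled FPKM it was 1 higher and 13 lower, and on FPKM set to equal sums without mitochondrial genes it was 0 higher and 14 lower. The median log2 difference of all genes was 0.09 under the scaling used here, -0.19 on unscaled FPKM and -0.28 on equal sums.

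Adamts1 had 10.8 (PN30) and 21.5 (PN67) scaled FPKM in later cardiomyocytes, against 98.7 (PN1) and 107 (PN1-2) in neonatal cardiomyocytes (difference -2.67 ± 0.33, limma adjusted p = 0.000283). Adamts9 had 4.46 and 3.55 scaled FPKM in later cardiomyocytes, against 23.9 and 26.7 in neonatal cardiomyocytes (difference -2.40 ± 0.14, limma adjusted p = 1.06e-05). Both versican-cleaving enzymes were several times lower in each later library than in each neonatal one. Adamts8, a related enzyme, had 0.784 and 0.356 scaled FPKM later, against 2.96 and 6.62 in neonatal cardiomyocytes (difference -1.82 ± 0.33, limma adjusted p = 0.00186). Adamts19 had 1.02 and 0.325 scaled FPKM in later cardiomyocytes, against 3.21 and 5.57 in neonatal cardiomyocytes (difference -1.69 ± 0.26, limma adjusted p = 0.000873).

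Mmp14 had 11.8 and 6.79 scaled FPKM in later cardiomyocytes, against 43.7 and 45.05 in neonatal cardiomyocytes (difference -2.18 ± 0.25, limma adjusted p = 0.00019). Timp1 had 2.39 and 1.59 scaled FPKM later, against 9.87 and 12.8 in neonatal cardiomyocytes (difference -2.05 ± 0.31, limma adjusted p = 0.000692). In both genes the later and neonatal libraries were well separated. Mmp12 had 0.181 and 0.317 scaled FPKM later, against 2.70 and 2.45 in neonatal cardiomyocytes (difference -1.52 ± 0.38, limma adjusted p = 0.00907). Neutrophil, endothelial and erythroid marker sums were all higher in the neonatal cardiomyocyte libraries, the erythroid one at 720 to 1100 later and 15719 to 20562 neonatal. Macrophage and leukocyte markers ran the other way, at 194 to 212 later and 70.6 to 93.0 neonatal. The part of these markers in the lower levels was not tested.

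Mmp15 had 52.3 and 34.3 scaled FPKM in later cardiomyocytes, against 20.5 and 22.8 in neonatal cardiomyocytes (difference 0.94 ± 0.19, limma adjusted p = 0.00355). On equal sums its difference was 0.50 and its limma adjusted p 0.055. Timp4, the inhibitor known for its high level in heart, had 1.59 (PN30) and 10.3 (PN67) scaled FPKM in later cardiomyocytes, against 0.431 (PN1) and 1.25 (PN1-2) in neonatal cardiomyocytes. The PN67 library stood far above the other 3, and Timp4 passed the mean filter of 1 through it alone, so that without PN67 it was not tested in any cell comparison. The call (1.60 ± 0.59, limma adjusted p = 0.0433) ended without either neonatal cardiomyocyte library (0.0685 and 0.197) or either neonatal fibroblast library (0.0691 and 0.0685). Adamts5, an aggrecan-cleaving enzyme, had 3.93 and 6.15 scaled FPKM in later cardiomyocytes, against 2.41 and 2.67 in neonatal cardiomyocytes (difference 0.75 ± 0.19, limma adjusted p = 0.00942).

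The most abundant inhibitors and Mmp2 were not called with stage in cardiomyocytes. Mmp2 had 56.1 and 48.8 scaled FPKM later, against 41.3 and 46.1 in neonatal cardiomyocytes (0.26 ± 0.11, limma adjusted p = 0.0738). Timp2 had 53.9 and 55.6 scaled FPKM later, against 48.5 and 53.3 in neonatal cardiomyocytes (0.10 ± 0.18, limma adjusted p = 0.621). Timp3 had 34.4 and 79.7 scaled FPKM later, against 69.6 and 69.7 in neonatal cardiomyocytes, with the later pair on either side of the neonatal pair (-0.40 ± 0.36, limma adjusted p = 0.344).

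Of the 15 cardiomyocyte calls, 7 held without each library in turn. Without the PN1 library 9 members were called in place of 15. The 8 calls that ended were those of Adamts5, Adamts14, Adamts15, Adamts17, Mmp11, Mmp12, Mmp19 and Timp4. Adamts17, at 2.55 and 0.612 scaled FPKM later against 3.75 and 3.93 in neonatal cardiomyocytes, moved by 1.02 downwards in log2 units, and by 0.43 without PN67 (limma adjusted p = 0.245). Fibroblast markers stood at a median of 13.2% of their fibroblast level in later cardiomyocyte libraries (4.11% to 21.9%) and 7.51% in neonatal ones (6.57% to 12.97%). Of the 29 members, 15 lay above that range in later cardiomyocytes and 28 in neonatal cardiomyocytes. Mmp16 (13.1%), Mmp2 (13.3%) and Adamts12 (13.5%) lay just above it in neonatal cardiomyocytes. The markers were chosen as fibroblast genes and the share of all genes above the range was not counted. These counts therefore do not show which members cardiomyocytes make.

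Stage changes of 15 members differed between the cell types by the test of the difference itself. The fibroblast change was above the cardiomyocyte change for 9 members and below it for 6, where 26.6% of all genes tested were called above and 32.3% below. The difference was 4.63 ± 0.43 for Timp1, 4.33 ± 0.21 for Mmp3, 4.20 ± 0.47 for Mmp13, 3.92 ± 0.19 for Adamts9 and 3.27 ± 0.47 for Adamts1, all in log2 units with limma adjusted p between 1.09e-05 and 0.000889. The lowest of these p-values is that of Mmp3. Mmp3 passed the mean filter through the later fibroblasts alone, so its p-value is not independent of that filter. Of the 15 members, 5 were called in both cell types in opposite directions, and the share of all genes called so was not counted. Timp1, Adamts9 and Mmp19 were higher in later fibroblasts and lower in later cardiomyocytes, and Mmp15 and Mmp11 the reverse. Adamts9, Mmp19 and Mmp11 share exonic bases with genes on the opposite strand, so their levels are uncertain in both cell types. The part of those genes in these calls was not tested. On equal sums Mmp15 and Mmp11 lost their cardiomyocyte calls (limma adjusted p = 0.055 and 0.097). The cardiomyocyte call of Mmp19 ended without PN30 or without PN1-2, and the fibroblast call of Mmp11 ended with several single libraries left out. Mmp15 had a difference of -2.06 ± 0.28 (limma adjusted p = 0.000614). Adamts19 was called lower in both cell types, and the difference of its changes was 0.14 ± 0.37 (limma adjusted p = 0.757). Single libraries decided the calls of Adamts15, Mmp2 and Mmp16, with limma adjusted p up to 0.0853 without one of them.

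**Figure D3:**
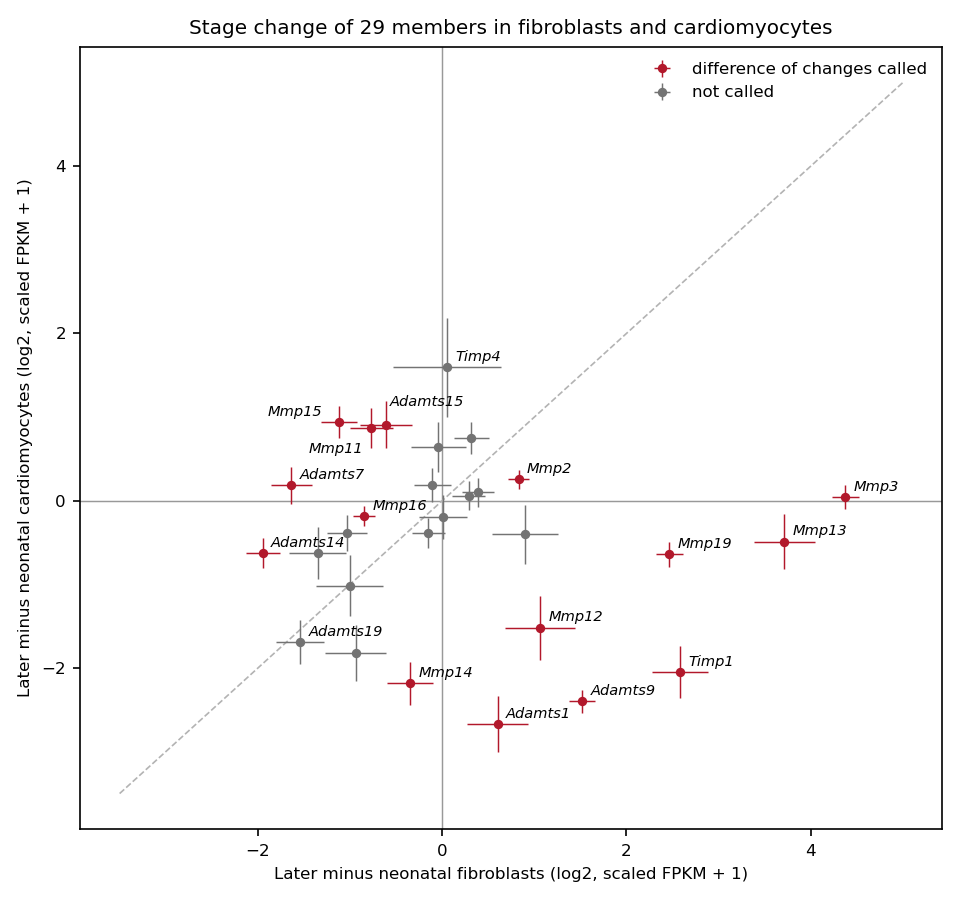
Stage change (log2 of scaled FPKM + 1) of 29 members, later minus neonatal, in fibroblasts (x axis) and cardiomyocytes (y axis), with SE bars from limma and the line of equal change dashed. Red points are the 15 members whose changes differed between the cell types, with Timp1, Adamts9 and Mmp12 at the lower right and Mmp15 at the upper left.

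Whole ventricle had 1 library per stage, and a slope over the 5 stages was tested. The slope was called downwards for 8 of 24 tested members and upwards for 1, where 16.2% of all 11635 genes tested were called downwards and 19% upwards. With PN28 and PN90 set against E17 and PN1 in place of a slope, 12 members were called, 2 higher and 10 lower. The shares of all genes called in that contrast are not given here, so these counts are not read as a result about the members. In such bulk samples, fewer cells of a type and less RNA per cell cannot be told apart. Ventricle libraries used another kit than the cells, so their levels are not set against the cell fits. Marker lists also moved with stage. Mesothelial and epicardial markers had 6 of 6 tested slopes downwards, with sums of 58.2, 17.1, 8.69, 4.42 and 5.22 scaled FPKM from E17 to PN90. Macrophage and leukocyte markers had 5 of 6 upwards, with sums of 23.4, 24.1, 45.8, 145 and 106, and cardiomyocyte markers 4 of 7 upwards, with sums between 10176 at E17 and 28906 at PN90. Fibroblast markers had 2 of 10 upwards and 2 downwards, with the highest sum, 468, at PN10. The sums cover only markers with a value in the cell libraries, 8 for fibroblasts, so slope counts and sums do not hold the same genes. The part of these markers in the slopes of the members was not tested.

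Adamts19 had 9.30, 9.71, 4.53, 1.15 and 0.782 scaled FPKM at E17, PN1, PN10, PN28 and PN90, a slope of -0.74 ± 0.10 in log2 units per stage (limma adjusted p = 0.00605). Adamts6, which was below the filter in cells, had 9.72, 9.74, 2.54, 1.47 and 1.94 in the same order (slope -0.59 ± 0.13, limma adjusted p = 0.0178). Both kept a plateau up to PN1 and were low from PN28 on. Adamts8 had 3.72, 2.17, 0.974, 0.527 and 0.338 scaled FPKM (slope -0.47 ± 0.06, limma adjusted p = 0.00529). Adamts9 had 15.6, 13.4, 12.04, 8.14 and 5.46 (slope -0.34 ± 0.05, limma adjusted p = 0.00765), lower at each stage than at the one before.

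Mmp14 had 24.8, 27.3, 26.0, 8.97 and 4.42 scaled FPKM from E17 to PN90 (slope -0.60 ± 0.14, limma adjusted p = 0.02). Mmp16, a membrane-bound relative, had 8.94, 9.16, 12.1, 2.15 and 1.27 (slope -0.60 ± 0.17, limma adjusted p = 0.0404). Both were lower at PN28 and PN90 than at any earlier stage, and Mmp16 was highest at PN10. Timp1 had 4.46, 4.66, 2.13, 1.93 and 1.26 (slope -0.35 ± 0.07, limma adjusted p = 0.0116). Timp4 was the member with an upward slope, at 0.126, 0.305, 0.398, 2.61 and 3.28 (slope 0.53 ± 0.10, limma adjusted p = 0.0108). It passed the mean filter of 1 through PN28 and PN90, so its p-value is not independent of that filter.

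Mmp2, Mmp15, Timp2, Timp3 and Adamts1 had ventricle means of at least 10 and no called slope. Mmp2 had 20.0, 22.2, 38.0, 31.1 and 15.4 scaled FPKM, highest at PN10. Mmp15 had 14.3, 15.0, 20.7, 13.02 and 11.3. Timp3 had 47.3, 35.6, 34.7, 48.4 and 58.6, and Adamts1 21.2, 18.1, 9.14, 11.3 and 13.1. Mmp2 and Mmp15 peaked at PN10, while Timp3 and Adamts1 were lowest there. The calls of Adamts9 and Adamts19 held without each library in turn. Adamts8 without E17 and Timp4 without PN90 fell under the mean filter and had no value, and their calls held without each other library. The p-value of Adamts8, like that of Timp4, is therefore not independent of that filter. In all, 4 members were called without E17. The calls of Mmp14 and Mmp16 ended without PN90, PN28 or PN1, and that of Mmp16 also without E17, with limma adjusted p of 0.0553 to 0.219. Those of Adamts6, Mmp11 and Timp1 ended without E17 (0.0957, 0.0537 and 0.0538), Adamts6 also without PN28 (0.0504) and Timp1 without PN90 (0.0548).

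**Figure D4:**
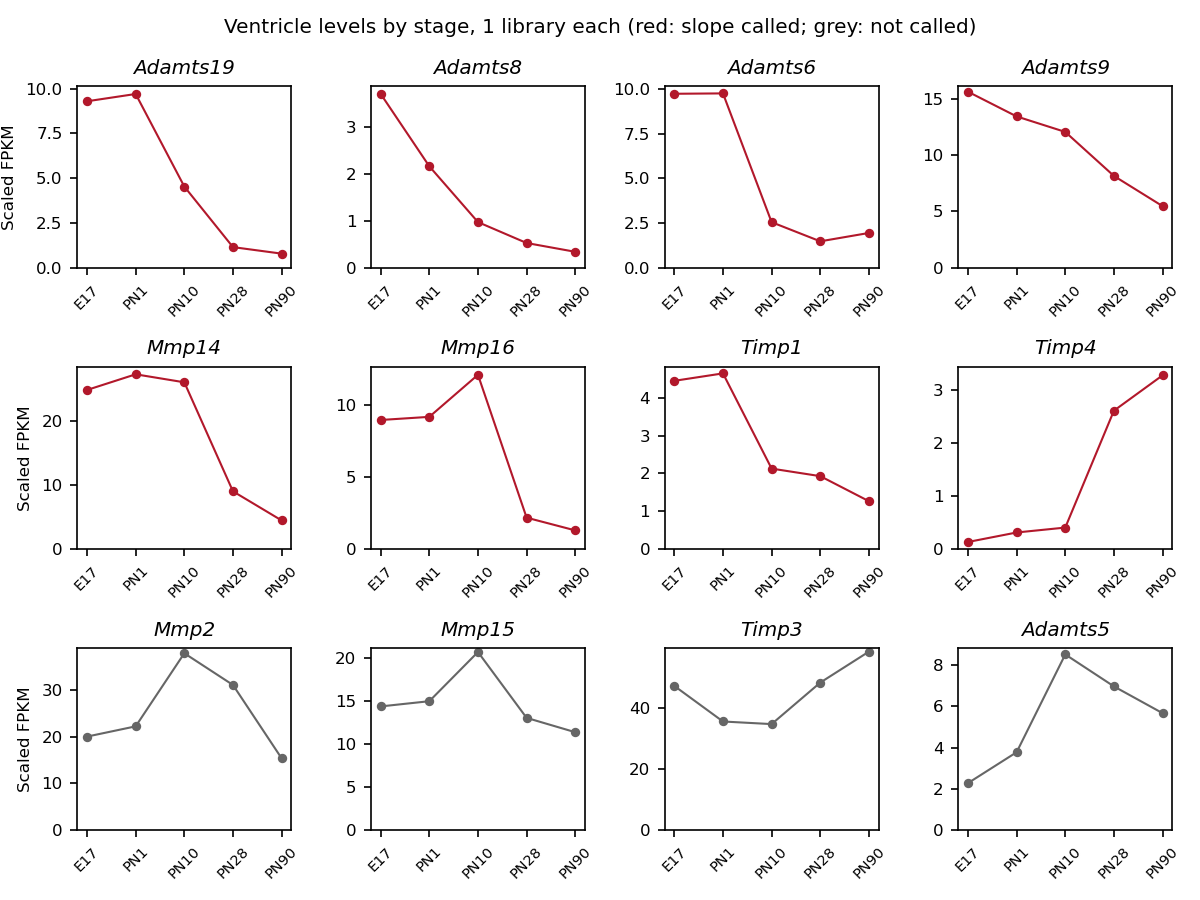
Scaled FPKM (linear axis from 0) of 12 members in whole ventricle by stage, from a single library per stage, with red lines for a called slope. Adamts19 is at 9.30 to 9.71 up to PN1 and at 0.782 by PN90, and Timp4 is at 2.61 and 3.28 in the last 2 stages.

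Ventricle levels of Mmp11 and Timp2 rested on short transcripts. One Mmp11 transcript of 335 nucleotides, annotated for nonsense-mediated decay, held 83.4% to 88.3% of the Mmp11 level in ventricles and at most 5.54% in cells. Mmp11 had 19.4, 16.3, 13.4, 10.3 and 8.87 scaled FPKM from E17 to PN90 (slope -0.27 ± 0.04, limma adjusted p = 0.00681). From transcripts of 800 nucleotides or more it had 2.16, 1.85, 1.92, 1.49 and 1.12, with a slope of -0.14 that was no longer called (limma adjusted p = 0.0604). Mmp11, stromelysin 3, also shares 155 exonic bases with Chchd10 on the opposite strand.

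Chchd10 moved with Mmp11 in the cells and against it in ventricle, where it had 99.4, 130, 177, 347 and 359 scaled FPKM from E17 to PN90. Mmp11 had 1.02 and 2.26 scaled FPKM in later fibroblasts and 3.98 and 2.85 in neonatal fibroblasts, where Chchd10 had 2.21 and 2.07 later and 13.2 and 13.9 neonatal. In cardiomyocytes Mmp11 had 5.34 and 4.93 later and 2.25 and 2.47 neonatal, where Chchd10 had 610 and 587 later and 117 and 139 neonatal. The part of Chchd10 in the cell levels of Mmp11 was not tested.

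A Timp2 transcript of 718 nucleotides held 80.2% to 83.7% of the Timp2 level in ventricles and 12.5% to 25.0% in cells. Timp2 had 54.2, 52.7, 82.0, 59.9 and 52.1 scaled FPKM from E17 to PN90 over all its transcripts, and 8.93, 8.92, 15.6, 11.8 and 9.39 over those of 800 nucleotides or more. PN10 was highest either way. For Mmp16 the ventricle mean was 6.72 over all transcripts and 4.35 over the longer ones, and no member other than these 3 with a slope test moved by more than 1.5 times.

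Over these longer transcripts, PN28 ventricle was set beside PN28 fibroblasts as a description, because kits and scaling differ. The 8 fibroblast markers stood in ventricle at 3.58% to 54.6% of their fibroblast level, with a median of 10.8%. Below that range were 5 of 29 members, Mmp13 at 0.323%, Timp1 at 0.651%, Mmp3 at 0.826%, Mmp12 at 1.53% and Mmp19 at 1.69%. Apart from Mmp12, these are members called higher in later fibroblasts. Those calls and these percents share the PN28 fibroblast library, so they are not independent of each other. Adamts9 (20.8%) and Mmp2 (5.25%), also called higher, lay inside the range, as did Mmp14 (5.07%). Above it were 9 members, led by Timp4 at 1625% (2.59 against 0.159 scaled FPKM), Mmp15 at 705% (12.9 against 1.83) and Adamts15 at 574% (3.72 against 0.648). The percents of Timp4 and Adamts15 thus rest on low fibroblast levels. The share of all genes outside the marker range was not counted. At PN1 against the mean of neonatal fibroblasts, 2 members were below the marker range (Mmp13 and Mmp3) and 14 above it, and Timp1 was at 11.0% and Mmp19 at 6.14%.

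**Figure D5:**
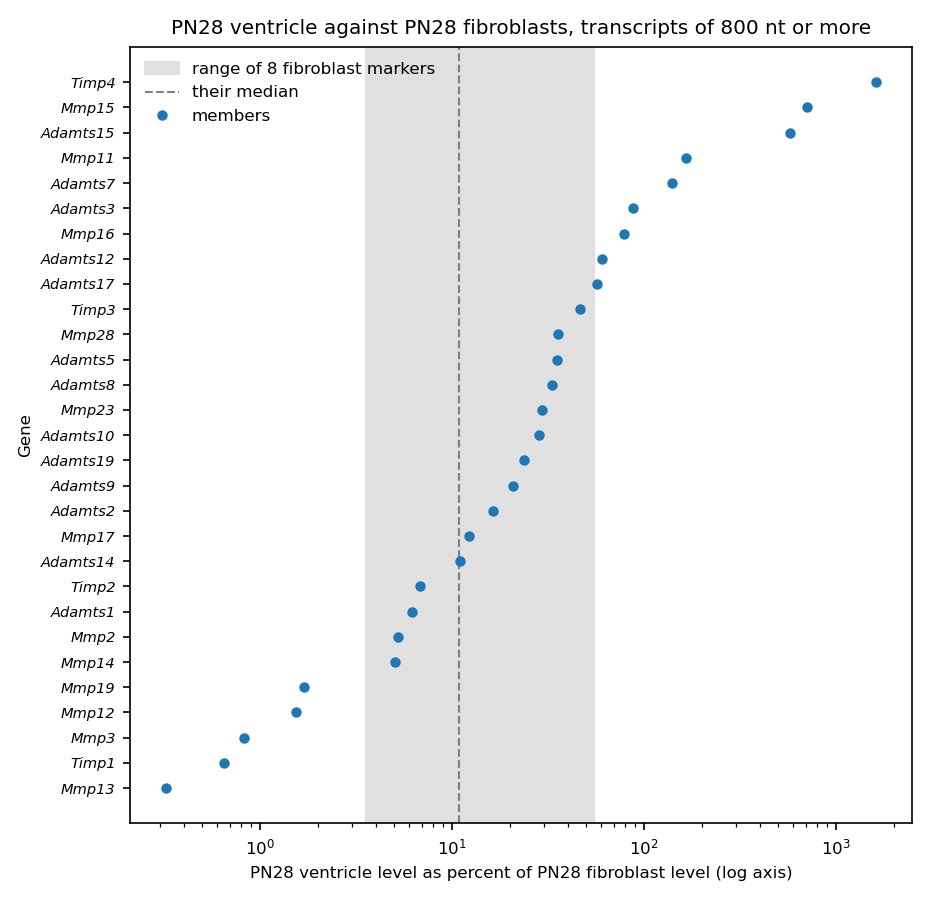
PN28 ventricle level as a percent of the PN28 fibroblast level (log axis) for 29 members over transcripts of 800 nucleotides or more, with the range of 8 fibroblast markers shaded and their median dashed. Mmp13, Timp1, Mmp3, Mmp12 and Mmp19 lie to the left of the shaded range, and Timp4, Mmp15 and Adamts15 farthest to the right.

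Genes that act on the members, or that the members act on, were read from lists of known pathway genes. The lists were chosen with earlier results of these data known, so their counts are not independent of those results. Their counts stand beside 19.7% higher and 21.4% lower over all genes tested in later fibroblasts, and 36.9% higher and 30.3% lower in later cardiomyocytes. One list held cytokines, cytokine receptors, and AP-1, NF-kB and other transcription factors known to act on Mmp genes. Of its 27 tested genes, 21 were higher in later fibroblasts and 0 lower, with a median of 1.15. In later cardiomyocytes 0 were higher and 18 lower, with a median of -1.30. The cytokine Il6 had 2873 and 2956 scaled FPKM in later fibroblasts, against 4.43 and 9.74 in neonatal fibroblasts (difference 8.58 ± 0.33, limma adjusted p = 9.16e-06). Lif, Tnf and Il1b were higher by 4.77, 4.15 and 3.79 in log2 units. In PN28 ventricle Il6 was at 0.0221 scaled FPKM.

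Activators and plasminogen system genes were higher for 5 and lower for 1 of 10 tested in later fibroblasts, and higher for 2 and lower for 6 in later cardiomyocytes. Plau, the urokinase that makes plasmin, had 226 and 271 scaled FPKM in later fibroblasts, against 33.9 and 28.7 in neonatal fibroblasts (difference 2.95 ± 0.20, limma adjusted p = 6.82e-05). Serpinb2, an inhibitor of urokinase, was higher by 2.37 and the urokinase receptor Plaur by 1.11. Of 7 other inhibitors and clearance genes, 4 were higher and 1 lower in later fibroblasts, among them Slpi (3.09), Tfpi2 (2.79) and Cst3 (2.19).

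Substrate lists differed in direction. Of 7 fibrillar collagens 0 were higher and 4 lower in later fibroblasts, and of 10 elastic fibre and basement membrane genes 1 was higher and 5 lower. Col1a1 had 125 and 148 scaled FPKM in later fibroblasts, against 558 and 499 in neonatal fibroblasts (difference -1.95 ± 0.37, limma adjusted p = 0.00517), and fibronectin (Fn1) fell by 4.67 in log2 units. The proteoglycan list, which also holds hyaluronan synthases, was higher for 4 and lower for 0 of 6. Its largest change was that of Has1 (4.57 ± 0.26), a hyaluronan synthase and not itself a proteoglycan. In ventricle, slopes were downwards for 5 of 7 fibrillar collagens and 6 of 12 elastic fibre and basement membrane genes, against 16.2% of all genes tested.

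Collagen processing and cross-linking genes were higher for 2 and lower for 3 of 16 in later fibroblasts, a share near or below that of all genes, with the procollagen C-proteinase enhancer Pcolce2 higher by 4.07 and the prolyl hydroxylase subunit P4ha3 lower (-2.22). ADAMTS-like genes, which lack a protease domain, were higher for 2 and lower for 0 of 5, with Adamtsl2 higher by 2.94. ADAM sheddases were higher for 0 and lower for 2 of 6, Adam12 among them (-1.50). With so few genes a list, none of these 3 counts is read as differing from the shares over all genes.

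Adamts3, Mmp17 and Mmp28 lay between 0.201 and 4.06 scaled FPKM in the 13 libraries and had no called stage change or slope. The 15 members tested in neither set were Mmp1b, Mmp7, Mmp8, Mmp9, Mmp10, Mmp20, Mmp21, Mmp24, Mmp25, Mmp27, Adamts4, Adamts13, Adamts16, Adamts18 and Adamts20, with no value above 1.53 in the sets in which they could be summed. The gelatinase Mmp9 and the neutrophil collagenase Mmp8 belong here, at up to 1.32 and 0.594. For Mmp7 the single transcript had too few reads for an estimate in any library. Adamts4, an aggrecan-cleaving enzyme, was left out of the cell set because its estimate failed in 3 of the 8 libraries, and its remaining values were 2.47 in PN28 fibroblasts, 1.07 in PN1-3 fibroblasts, 0.0463 and 0.0654 in PN30 and PN67 cardiomyocytes and 7.51 in PN1-2 cardiomyocytes.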

How the data were processed

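The authors aligned reads with TopHat2 2.0.5 and estimated transcript FPKM with Cufflinks 2.1.1 on mm9, per the submitters' processing notes. The annotation release and use of strand are not given in the sources used here. Each deposited file lists transcript FPKM, with bounds and coverage, per the file headers. Read totals were not used here, so depth per library is unknown, and the median coverage per FPKM of 19.5 to 32.8 is the only guide to it.

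Of 94696 transcripts, 82379 (87.0%) were matched by identifier to GENCODE M21 for names. FPKM was summed per gene over transcripts of 200 nucleotides or more, leaving out genes with a HIDATA or FAIL status in any library of the set and transcripts marked LOWDATA. Sums were scaled by median ratios, filtered at a mean of 1 and fitted as log2(scaled FPKM + 1) with limma 3.58.1 (R 4.3.3, intensity trend), with 4 classes in the 8 cell libraries and a slope on stage order in the 5 ventricle libraries. This scale understates changes of low genes. The method was tested on simulated data. Coordinates are mm9 from the deposited files unless GRCm38.p6 is named.

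Named genes were members called with an absolute log2 change of at least 1 in a stage comparison, called in the ventricle slope or with a mean of at least 10, plus at most 4 called genes per list. Members and lists were chosen with earlier results of these data known. Alternatives changed the pseudocount, filter, scaling, transcript set, time scale or libraries, and transcripts of 800 nucleotides or more were added after seeing the data.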

Additional observations from a re-analysis of the deposited data

Results flagged for a closer look

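For 15 of 29 tested members the later minus neonatal change differed between fibroblasts and cardiomyocytes by the test of the difference itself. The fibroblast change was above the cardiomyocyte change for 9 and below it for 6. Of all genes tested, 26.6% were called above and 32.3% below, so the members are not read as differing more often than other genes. The fibroblast change minus the cardiomyocyte change, in log2 units, was 4.63 for Timp1, 4.33 for Mmp3, 4.2 for Mmp13, 3.92 for Adamts9, 3.27 for Adamts1, 3.11 for Mmp19, 2.58 for Mmp12, 1.84 for Mmp14 and 0.573 for Mmp2. It was -2.06 for Mmp15, -1.82 for Adamts7, -1.64 for Mmp11, -1.52 for Adamts15, -1.32 for Adamts14 and -0.661 for Mmp16. Cardiomyocytes of the stages were isolated by different methods and fibroblasts by one, so that stage and isolation cannot be told apart in these differences. Mmp3 passed the mean filter through the later fibroblasts alone, so the test of its difference is not independent of that filter.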

How the results depend on the processing

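No paired analysis was possible because the labels give no replicate numbers. Counts of called members stayed within 1.5 times except in 3 cases: 9 in cardiomyocytes without the neonatal PN1 library (15 otherwise), and in ventricle 4 without E17 and 5 with a slope on log2 days since conception (9 otherwise). Over libraries left out in turn, counts ranged from 11 to 17 in fibroblasts, 9 to 19 in cardiomyocytes, 13 to 18 for the difference of changes, 14 to 18 and 23 to 26 between neonatal and later cell types, and 4 to 11 in ventricle. In fibroblasts the split of 6 higher and 8 lower was 6 and 11 on unscaled FPKM and 6 and 12 on equal sums without mitochondrial genes, where the median of all genes was -0.30 in place of -0.03.

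Single-gene values were followed for members called in a comparison or with a mean of at least 10, a limit set after all values had been seen. Of these, 2065 kept direction and call, 95 lost a call, 34 gained one and 24 changed sign. Over all tested members 80 values changed sign. With a library left out, the fibroblast change of Adamts10 ranged from -0.54 to 0.51 (without PN28, limma adjusted p = 0.0184), and was 0.04 without PN1-2. On unscaled FPKM the change of Adamts5 in fibroblasts was -0.0051, and in cardiomyocytes it was -0.12 for Adamts2, -0.081 for Mmp2 and -0.24 for Timp2. On equal sums Adamts5 was at -0.0037, Adamts2 at -0.21, Mmp2 at -0.19 and Timp2 at -0.35, and Timp3 was 0.084 higher in neonatal fibroblasts than in neonatal cardiomyocytes. Timp2 was at -0.057 in a fit of cardiomyocytes alone. With a library left out, cardiomyocyte changes ranged from -0.12 to 0.54 for Adamts2 and -0.97 to 0.21 for Timp3, and the difference of changes from -0.64 to 0.011 for Adamts2. Ventricle slopes then ranged from -0.18 to 0.0090 for Mmp15, -0.19 to 0.26 for Mmp2 and -0.058 to 0.11 for Timp2 (-0.019 without PN1). Mmp2 was at 0.053 in PN28 and PN90 minus E17 and PN1. The Timp2 slope was -0.10 on unscaled FPKM, -0.085 on equal sums and -0.033 on log2 days, and the Timp3 slope -0.0041 on unscaled FPKM. The cause was not tested. With 2 libraries a class and 1 a ventricle stage, the number of libraries limits the precision.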
